A study of Mus musculus with 12 samples.

Results

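The brains of 4 mice given lipopolysaccharide together with N,N-dimethylacetamide (LPS+DMA) were compared with those of 4 mice given lipopolysaccharide alone (LPS). The libraries were chosen by their treatment labels and make up 8 of the 12 in the series. The other 4 are from mice injected with phosphate-buffered saline (PBS) and serve here as the untreated level. All mice were adult C57BL/6, an inbred laboratory strain, and each arm held 2 females and 2 males. LPS went into the abdominal cavity at 0.5 mg/kg every day for 7 days, and brains were taken on day 7. DMA was injected by the same route every day, at a dose not given in the sources used here. There was no arm with DMA alone, so an effect of DMA that needs no LPS cannot be told apart from an effect on the LPS response. The series' title names a lessening of LPS-induced neuroinflammation, and the comparison asks which brain genes were higher or lower when DMA accompanied LPS.

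LPS is a component of the outer membrane of Gram-negative bacteria. It is sensed by Toll-like receptor 4 and its partners CD14 and MD-2 on innate immune cells, which then activate the NF-kB transcription factors and the type I interferon pathway. In the brain the main responding cells are microglia, the resident macrophages, which raise lysosomal, antigen-presenting and complement genes, and astrocytes, which raise the intermediate filament GFAP. DMA is a small organic solvent used to dissolve drugs.

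Levels are given as FPKM, read fragments divided by gene length and scaled by library size, and changes as log2 of FPKM + 1 in LPS+DMA minus LPS. A gene was called when its limma p, adjusted by the Benjamini-Hochberg method over all 19571 tested genes, was under 0.05. Whenever 4 values are listed for an arm, they stand in the order female 1, female 2, male 1, male 2. The labels describe separate mice, 1 library each.

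The LPS libraries held 33.3 ± 3.92 M (megareads) recovered from the FPKM, and the LPS+DMA libraries held 32.2 ± 4.18 M (SD over n = 4). The labels name whole brain, yet Gabra6, whose GABA receptor subunit is typical of granule cells of the cerebellum, was at 114, 0, 15.6 and 90.5 FPKM in LPS and at 0, 0, 0 and 0.17 FPKM in LPS+DMA. In PBS, Gabra6 was at 74.6 FPKM in female 1 and at 0 in the other 3 libraries. This marker was thus at or near 0 in all 4 LPS+DMA libraries and in LPS female 2, and above 10 FPKM, called a cerebellar signal here, in the other 3 LPS libraries. Brain region content therefore differed between the arms, and for genes that differ between brain regions it cannot be told apart from treatment. The ribosomal RNA share also set LPS female 2 apart, at 0.0499% of reads against 3.6% to 10.9% in the other 7 libraries compared. LPS+DMA male 1 stood apart in stress-hormone genes and LPS+DMA female 1 in choroid plexus genes, as given beside those results. LPS+DMA male 1 was also the lowest of its arm in homeostatic microglia and myelin genes, at mean log2 levels of 1.404 and 3.537. The rest of the arm was at 2.505 to 2.766 and at 4.974 to 5.155.

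Of the 19571 genes, 1133 were called higher and 759 lower in LPS+DMA, that is 5.79% and 3.88% of the genes tested, or 9.67% in either direction. Among the calls 59.9% were higher, a share that was 45.8% with upper-quartile scaling and 20.5% with plain per-million scaling, which moved the median change of all genes to -0.11. With the deposited scaling the median change over all tested genes was 0.01, that of the genes called higher 0.80 and that of the genes called lower -0.71. A change of at least 1 on the log2 scale was reached by 397 genes called higher and by 168 called lower. Non-overlapping values in the 2 arms, with all 4 LPS+DMA libraries higher, were seen in 6.26% of the genes tested, and with all 4 lower in 5.98%.

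The number of calls depended on which libraries entered the fit. It was 11, 7 and 22 without LPS female 1, LPS male 1 and LPS male 2, the 3 libraries with cerebellar signal, and 3465 without LPS female 2. It was 1228, 1071 and 1119 without LPS+DMA female 1, female 2 and male 2, and 1166 and 1052 without PBS male 1 and male 2, which add to the estimate of the spread. With the 8 libraries alone 5 genes were called (4515 at an unadjusted p under 0.05, against 5564 with all 12). With a forebrain minus hindbrain score as a covariate 2 genes were called, and with choroid plexus and blood scores 0 (667 unadjusted). The forebrain minus hindbrain score was the mean log2 level of cortex and hippocampus genes minus that of cerebellum genes. It held no list of brainstem genes.

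**Figure D1:**
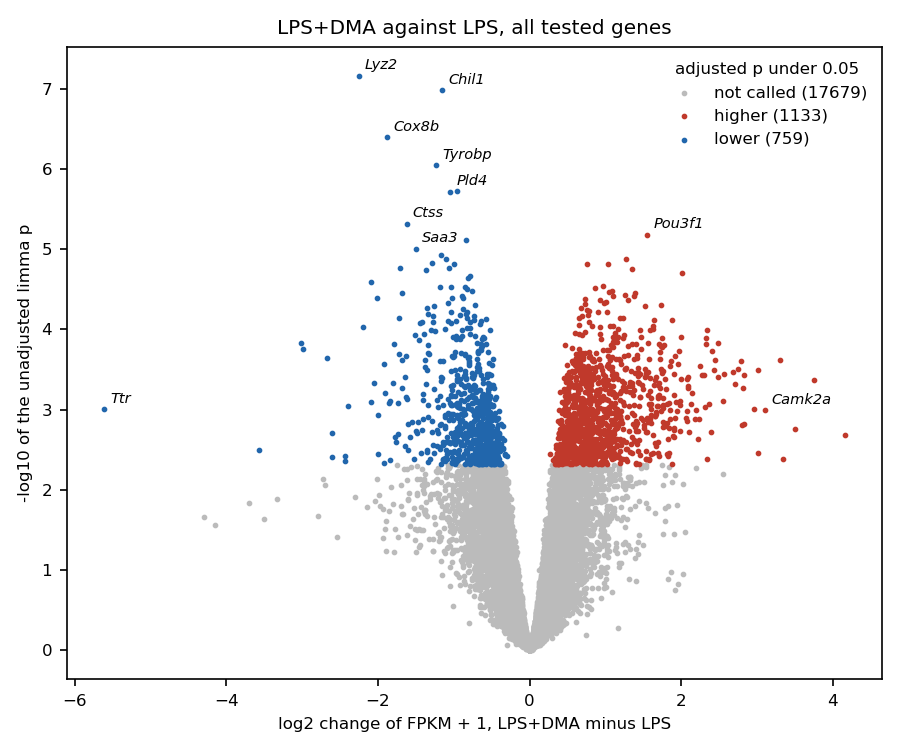
Each point is 1 of the 19571 tested genes, with its log2 change (LPS+DMA minus LPS) on the horizontal axis and -log10 of its unadjusted limma p on the vertical axis, coloured by call at an adjusted p under 0.05. Lyz2, Chil1, Cox8b, Tyrobp and Pld4 have the smallest p-values among the lower genes that are labelled, while Ttr lies farthest to the left and Camk2a far to the right at larger p-values.

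Across all 12 fits that each left out 1 library, 6 genes were called every time, and all 6 were lower in LPS+DMA. Lyz2 encodes lysozyme M of macrophages and microglia, and Tyrobp encodes the ITAM adaptor DAP12 that carries signals from microglial surface receptors. Pld4 encodes a lysosomal nuclease of microglia, and Chil1 a chitinase-like protein that reactive astrocytes secrete. Gsta4 encodes a glutathione transferase that removes aldehydes of lipid peroxidation, and Cox8b an isoform of a cytochrome c oxidase subunit best known from heart and skeletal muscle.

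Lyz2 (ENSMUSG00000069516) stood at 35.4, 32.4, 38.9 and 33.3 FPKM in LPS and at 6.01, 9.29, 7.05 and 4.56 FPKM in LPS+DMA. The lowest LPS library was more than 3 times the highest LPS+DMA library, and the LPS+DMA values lay around the 6.57 to 10.3 FPKM of PBS. The log2 change of Lyz2 was -2.25 (SE 0.18, adjusted p = 0.00103), and it was called in 27 of the 29 alternative settings. Reads of Lyz2 and its near-identical neighbour Lyz1 may not be separable.

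Tyrobp (ENSMUSG00000030579) was at 24.7, 28.5, 26.3 and 23.3 FPKM in LPS and at 12.1, 11.1, 10.9 and 7.84 FPKM in LPS+DMA, with PBS at 13.2 to 17.1. The arms did not overlap, and every LPS+DMA library was below every PBS library. Tyrobp changed by -1.23 (SE 0.13, adjusted p = 0.00436). Pld4 (ENSMUSG00000052160) read 3.69, 3.56, 3.19 and 3.59 FPKM in LPS and 1.38, 1.15, 1.23 and 0.999 FPKM in LPS+DMA, a change of -1.04 (SE 0.12, adjusted p = 0.00626). Both arms of Pld4 were tight, with SDs of 0.218 and 0.158 FPKM.

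Chil1 (ENSMUSG00000064246) gave 4.65, 4.07, 6.47 and 5.79 FPKM in LPS and 1.35, 1.18, 2.29 and 2.48 FPKM in LPS+DMA. In both arms the 2 males were above the 2 females, and PBS, at 3.11 to 4.95 FPKM, lay above all LPS+DMA libraries. The change was -1.16 (SE 0.10, adjusted p = 0.00103). For Gsta4 (ENSMUSG00000032348) the LPS libraries held 40.7, 29.9, 40.5 and 36.8 FPKM and the LPS+DMA libraries 18.5, 17.2, 18.5 and 19.7 FPKM. All LPS+DMA libraries were below the PBS range of 26.7 to 32.9 FPKM, and LPS female 2 lay inside it. Its change was -0.95 (SE 0.11, adjusted p = 0.00626).

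Cox8b (ENSMUSG00000025488) was low in both arms, at 4.18, 4.01, 2.84 and 2.63 FPKM in LPS and at 0.651, 0.202, 0 and 0 FPKM in LPS+DMA. The PBS libraries, at 0.602 to 1.33 FPKM, lay below every LPS library and overlapped LPS+DMA female 1, and the change was -1.88 (SE 0.18, adjusted p = 0.00265). In the coordinates of the deposited table, on GRCm39, Lyz2 spans chr10:117113236-117118226, Tyrobp chr7:30113185-30117010 and Pld4 chr12:112727089-112735424. Chil1 spans chr1:134109914-134117919, Gsta4 chr9:78090056-78116631 and Cox8b chr7:140478858-140480359.

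**Figure D2:**
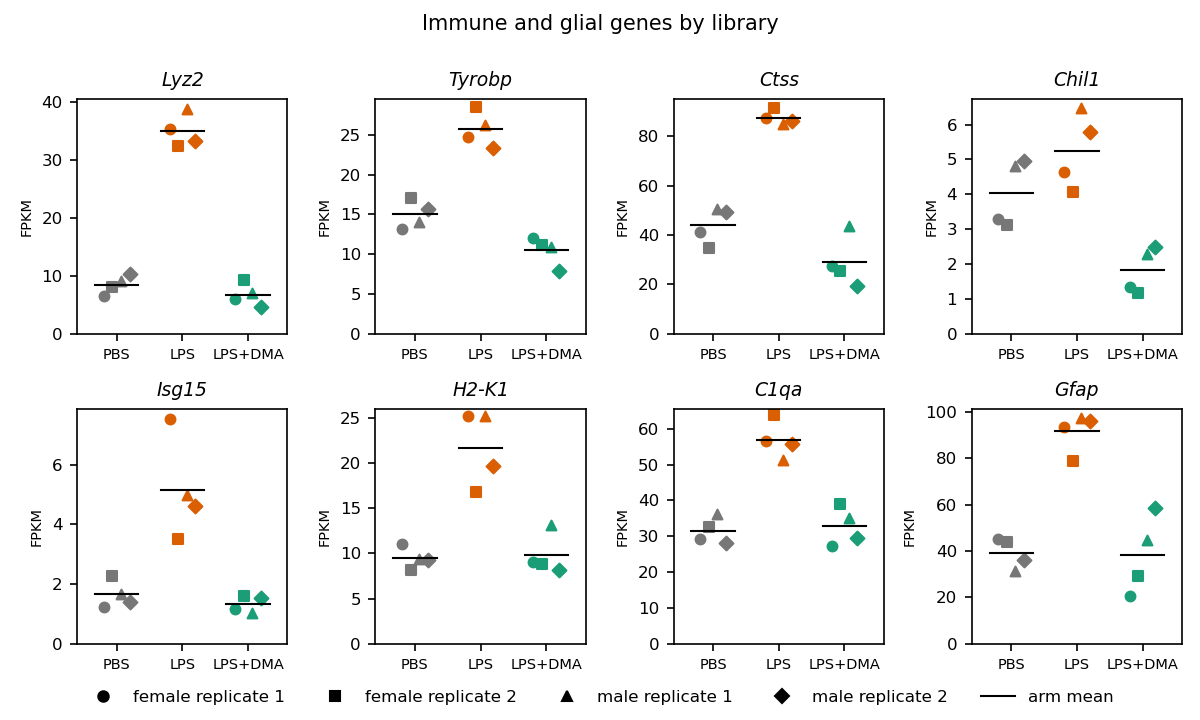
Each panel shows 1 gene, with FPKM on the vertical axis and the 3 arms on the horizontal axis. Symbols mark the individual libraries and lines the arm means (n = 4). In all 8 panels the 4 LPS libraries lie above the 4 LPS+DMA libraries, and the LPS+DMA libraries of Lyz2 and C1qa lie in or near the range of PBS.

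Among the adaptors and Fc receptors that give microglia their activating signals, 6 of 10 tested members fell and none rose, with a median change of -0.68. Fcer1g, the shared gamma chain of Fc receptors, was at 11.3, 18, 11.2 and 11.7 FPKM in LPS and at 6.26, 6.16, 7.09 and 5.72 FPKM in LPS+DMA (change -0.92, adjusted p = 0.0186). The arms did not overlap, and LPS female 2 was the highest library. Clec7a, the beta-glucan receptor Dectin-1, fell by 0.82 on the log2 scale (adjusted p = 0.0182) from levels near 1 FPKM. In bulk tissue, fewer microglia and less of these RNAs per microglial cell cannot be told apart.

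The homeostatic microglia list, whose genes mark resting microglia, had 4 of 14 members falling and none rising, with all 14 lower on average and a median of -0.65. Csf1r, the receptor on which microglia depend for survival, changed by -0.61 (adjusted p = 0.0307). The lectin gene Siglech was at 4.13, 5.62, 4.41 and 4.73 FPKM in LPS and at 2.88, 2, 1.1 and 2.95 FPKM in LPS+DMA, without overlap (change -0.86, adjusted p = 0.0270). Aif1, which encodes the common microglial stain IBA1, changed by -0.92 at adjusted p = 0.0457 and was called in 8 of 29 alternative settings. Tmem119, a membrane protein of microglia, was at 7.85, 12.3, 5.94 and 7.56 FPKM in LPS and at 6.99, 7.38, 2.07 and 4.52 FPKM in LPS+DMA. Its arms overlapped and it was not called (change -0.66, adjusted p = 0.106). The summed level of the list was 138 to 192 FPKM in LPS, 54 to 117 in LPS+DMA and 101 to 130 in PBS, and LPS female 2 was the highest library. Without LPS+DMA male 1, the library with the lowest Aif1 and Tmem119, the median of the list was -0.34 and 4 members were called.

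Of the disease-associated microglia list, genes that microglia raise around plaques and dying cells, 8 of 17 fell and 1 rose, and the median was -0.12 (-0.36 without LPS+DMA male 1). Besides Lyz2, the tetraspanin genes Cd63 and Cd9 fell. Cd63 was at 19.8, 16.3, 17 and 14.9 FPKM in LPS and at 9.65, 9.02, 8.7 and 10.2 FPKM in LPS+DMA (change -0.79, adjusted p = 0.0182). Cd9 changed by -0.83 (adjusted p = 0.0186). The rising member was Lpl, a lipoprotein lipase gene named here after its values were seen (change 1.10, adjusted p = 0.0220, overlapping arms).

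Antigen presentation genes were lower in part. In MHC class II, the pathway that shows engulfed proteins to CD4 T cells, 5 of 7 tested members fell and none rose, with a median of -0.94. Ctss, the cathepsin that trims the class II invariant chain, was at 87.5, 91.5, 85.1 and 86.1 FPKM in LPS and at 27.4, 25.3, 43.8 and 19.3 FPKM in LPS+DMA. The LPS libraries lay within a narrow band, and the highest LPS+DMA library, male 1, was inside the PBS range of 34.8 to 50.7 FPKM. Ctss changed by -1.62 (SE 0.20, adjusted p = 0.0135). The invariant chain gene Cd74 went from 6.34, 3.28, 5.56 and 3.15 FPKM to 0.785, 0.477, 0.273 and 1.76 FPKM (change -1.63, adjusted p = 0.0203), and the class II beta chain gene H2-Eb1 changed by -1.18 (adjusted p = 0.0203). The arms of both genes did not overlap.

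In MHC class I, which shows peptides from inside the cell to CD8 T cells, 5 of 12 fell and none rose, with a median of -0.46. H2-K1, a class I heavy chain that shares sequence with H2-D1, was at 25.2, 16.8, 25.2 and 19.7 FPKM in LPS and at 9.07, 8.78, 13.2 and 8.14 FPKM in LPS+DMA (change -1.08, SE 0.17, adjusted p = 0.0186). B2m, its light chain, had 180, 143, 173 and 148 FPKM against 91.7, 60.9, 120 and 56.5 FPKM (change -1.02, adjusted p = 0.0240). In both genes LPS female 2 was the lowest LPS library and LPS+DMA male 1 the highest of its arm, and the arms did not overlap. Psmb8, an immunoproteasome subunit, changed by -0.54 (adjusted p = 0.0279).

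Interferon-stimulated genes formed the list with the largest number of falling members, and also with the most members tested. By share other lists were higher, such as MHC class II with 5 of 7 falling. Of 24 tested, 13 fell and none rose, all 24 were lower on average, and the median was -0.63. Isg15, a ubiquitin-like modifier, was at 7.55, 3.51, 5 and 4.61 FPKM in LPS and at 1.17, 1.6, 1.04 and 1.53 FPKM in LPS+DMA (change -1.37, SE 0.20, adjusted p = 0.0172). The LPS+DMA libraries were in or just below the PBS range of 1.24 to 2.27 FPKM. Bst2, the tetherin that holds enveloped viruses at the cell surface, was at 7.54, 6.07, 6.6 and 5.74 FPKM in LPS and at 3.83, 2.58, 1.96 and 1.87 FPKM in LPS+DMA (change -1.10, adjusted p = 0.0172). Ifit3, a partner of the RNA-binding IFIT complex, fell by 0.96 on the log2 scale (adjusted p = 0.0186), with reads that its copy Ifit3b may share. Ifi27l2a, a small interferon-induced protein, had 16.5, 4.29, 4.08 and 8.99 FPKM against 1.9, 0.628, 0.527 and 0.498 FPKM (change -2.19, adjusted p = 0.0188). None of these 4 genes overlapped between the arms, and the level within LPS was widest for Ifi27l2a. The LPS libraries without and with cerebellar signal differed here: the list's median difference from the LPS+DMA mean was 0.31 in LPS female 2 and 0.75 over the other 3, and without LPS female 2 19 members fell.

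Many interferon-stimulated genes carry a promoter element, bound by the factor complex ISGF3, whose core is written GAAANNGAAA. The promoters of the 3 falling members with the smallest p that hold it are shown here so that the element can be seen in place, each running from 250 bases before to 50 after the gene start. They are RefSeq sequences on GRCm38.p6, a different build from the deposited table, at chr8:71537423-71537722 for Bst2 and chr4:156200769-156201068 for Isg15, both minus strand, and chr19:34583279-34583578, plus strand, for Ifit3. Capitals mark every match on either strand, and matches that overlap run together.
Bst2: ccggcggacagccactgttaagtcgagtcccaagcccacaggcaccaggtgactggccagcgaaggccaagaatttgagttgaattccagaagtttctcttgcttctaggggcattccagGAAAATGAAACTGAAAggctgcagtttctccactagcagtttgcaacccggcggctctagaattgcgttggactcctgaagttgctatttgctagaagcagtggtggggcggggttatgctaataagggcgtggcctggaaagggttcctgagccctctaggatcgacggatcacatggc
Isg15: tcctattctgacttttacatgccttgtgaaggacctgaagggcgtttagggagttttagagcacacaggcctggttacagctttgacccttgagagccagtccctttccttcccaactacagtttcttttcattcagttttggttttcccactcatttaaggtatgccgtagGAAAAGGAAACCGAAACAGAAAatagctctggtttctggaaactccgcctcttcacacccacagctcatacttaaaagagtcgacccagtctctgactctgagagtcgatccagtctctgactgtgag
Ifit3: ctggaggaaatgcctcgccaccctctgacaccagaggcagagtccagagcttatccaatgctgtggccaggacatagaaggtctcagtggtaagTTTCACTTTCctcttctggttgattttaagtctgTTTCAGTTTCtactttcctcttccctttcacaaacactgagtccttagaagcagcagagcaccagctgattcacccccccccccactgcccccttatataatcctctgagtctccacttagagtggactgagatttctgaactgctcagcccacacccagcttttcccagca

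The matches lie between 57 and 156 bases before the gene start in the 3 promoters. A match is a description of the letters and not evidence of binding. Of 19 tested members of the list with a promoter entry, 13 held a match, 7 of the 10 called lower and 6 of the 9 not called. The element thus occurred in both groups at about the same frequency. Over all 32851 promoters, counted singly, 3.44% held a match. Counted by gene, 3.52% of the 12055 tested genes with a promoter entry held a match. Among these genes the share was 6.24% of the 561 called lower and 2.36% of the 804 called higher.

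Complement, the protein cascade that tags debris and synapses for removal, had 8 of 15 members falling and none rising, with a median of -0.61. C1qa, a chain of the initiating C1q complex made by microglia, was at 56.7, 63.8, 51.4 and 55.7 FPKM in LPS and at 27.4, 39, 35.2 and 29.6 FPKM in LPS+DMA (change -0.79, SE 0.13, adjusted p = 0.0186). The LPS+DMA values spanned the PBS range of 28.1 to 36.2 FPKM, and the arms did not overlap. C3, the central component, had 1.03, 0.854, 1.4 and 1.15 FPKM against 0.125, 0.134, 0.214 and 0.441 FPKM (change -0.78, adjusted p = 0.0188). Cd59a, an inhibitor of the terminal pore, fell as well, by 1.52 on the log2 scale (adjusted p = 0.0192), so activating components and an inhibitor were both among the falling members.

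The sensors and transcription factors upstream of these genes showed no calls. In the LPS sensing and NF-kB list 0 of 20 members passed, with changes from -0.69 to 0.26 and a median of -0.13. With plain per-million scaling 3 members were called lower. Leaving out LPS female 2 gave 1 member called lower, and leaving out LPS+DMA male 1 also gave 1. Tlr2, which senses bacterial lipoproteins, was at 0.998, 1.39, 1.49 and 1.16 FPKM in LPS and at 0.214, 0.314, 1.15 and 0.536 FPKM in LPS+DMA, with LPS+DMA male 1 inside the LPS range (change -0.57, adjusted p = 0.0592). Nfkbia, the inhibitor that NF-kB itself induces, was at 9.62, 10.1, 10.7 and 11.2 FPKM in LPS and at 8.86, 12.9, 29.8 and 7 FPKM in LPS+DMA (change 0.25, adjusted p = 0.635). Its mean was raised by male 1, and without that library its change was -0.16.

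Secreted inflammatory genes were mixed. Of 13 tested cytokines and chemokines 2 fell and 1 rose (3 and 2 without LPS female 2), and Tnf, Il1b, Il6 and Nos2 were below the filter on low values, so no change in them could be measured at these levels. Ccl5, a chemokine that attracts T cells, was at 1.97, 1.74, 3.58 and 1.44 FPKM in LPS and at 0.183, 0.379, 1.08 and 0 FPKM in LPS+DMA (change -1.18, adjusted p = 0.0240). Cxcl16, a chemokine of macrophages, fell by 0.99 on the log2 scale (adjusted p = 0.0203). Cx3cl1, the membrane-bound chemokine that neurons display to microglia, had 37, 120, 35.1 and 28.8 FPKM against 176, 150, 109 and 120 FPKM (change 1.54, adjusted p = 0.0213). Its LPS value in female 2 was within the LPS+DMA range, and the other 3 LPS libraries were well below it.

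Of 5 tested acute-phase genes 1 fell. Saa3, a serum amyloid gene, stood at 2.42, 3.17, 2.18 and 1.61 FPKM in LPS and at 0, 0.0279, 0.75 and 0.0295 FPKM in LPS+DMA, and had no reads in any PBS library. LPS+DMA male 1 was the highest of its arm, still below every LPS library (change -1.50, adjusted p = 0.0172). Lcn2, the iron-siderophore binding lipocalin 2, was at 1.84, 0.648, 1.07 and 0.954 FPKM in LPS and at 0.201, 3.99, 5.7 and 0.791 FPKM in LPS+DMA (change 0.48, adjusted p = 0.517). Its 2 highest libraries were therefore in the LPS+DMA arm, female 2 and male 1, while PBS did not exceed 0.14 FPKM. Serpina3n, a protease inhibitor of reactive astrocytes, had 11.8, 15.4, 19.5 and 14.2 FPKM against 4.62, 11.5, 17.8 and 7.21 FPKM and was not called (change -0.65, adjusted p = 0.160). Ptgs2, the inducible prostaglandin synthase that neurons also express, rose by 0.76 (adjusted p = 0.0399) with overlapping arms and was called in 12 of 29 alternative settings.

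Astrocyte genes moved in both directions. In the reactive astrocyte list 5 of 19 fell and none rose, with a median of -0.33, and 2 fell without LPS+DMA male 1. Gfap, the astrocyte intermediate filament, was at 93.5, 79, 97.5 and 96.3 FPKM in LPS and at 20.5, 29.1, 44.7 and 58.7 FPKM in LPS+DMA (change -1.34, SE 0.25, adjusted p = 0.0203). The 2 LPS+DMA females were below the PBS range of 31.4 to 45.3 FPKM, and no LPS+DMA library reached the lowest LPS one. Vim, vimentin, changed by -0.86 (adjusted p = 0.0316). Among 12 homeostatic astrocyte genes 2 fell and 1 rose: the water channel gene Aqp4 by -1.61 (adjusted p = 0.0242), the calcium-binding S100b by -1.78 (adjusted p = 0.0197) and the glutamate transporter gene Slc1a2 by 0.83 (adjusted p = 0.0395). S100b was at 320, 110, 258 and 300 FPKM in LPS and at 71.7, 74.5, 62.5 and 55.5 FPKM in LPS+DMA. Slc1a2 had 98.6, 206, 101 and 93 FPKM in LPS and 220, 248, 152 and 234 FPKM in LPS+DMA, with overlapping arms. For Aqp4, S100b and Slc1a2, LPS female 2 was the LPS library closest to LPS+DMA. Its Aqp4 level was 25.8 FPKM, beside 25.4 FPKM in LPS+DMA male 2, the highest of that arm.

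Blood vessel and border cells gave few calls. The blood-brain barrier list had 0 of 16 called, fibroblasts and meninges 0 of 10, border macrophages 0 of 7 and neutrophils 0 of 6. In pericytes and smooth muscle 1 of 9 fell, Rgs5, a regulator of G protein signalling in pericytes (change -0.64, adjusted p = 0.0415), a call lost without LPS+DMA male 1. Red blood cell genes had 0 of 8 called (3 lower without LPS female 2) and a median of -1.17 (-0.70 without LPS+DMA male 1), and their summed level was 265 to 971 FPKM in LPS, 52.5 to 318 in LPS+DMA and 92 to 136 in PBS. Hbb-bs, an adult beta globin, was at 353, 117, 549 and 164 FPKM in LPS and at 91.5, 146, 15.5 and 113 FPKM in LPS+DMA (change -1.80, adjusted p = 0.0913). The part of residual blood in the immune results was not tested beyond the fit with blood and choroid plexus scores given above.

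The choroid plexus, the secretory epithelium of the ventricles, gave 12 of 18 members falling, none rising and a median of -1.14. Ttr, the thyroid hormone carrier that this epithelium secretes, was at 1760, 1240, 1140 and 181 FPKM in LPS and at 416, 18.7, 2.26 and 1.91 FPKM in LPS+DMA. LPS+DMA female 1 exceeded LPS male 2, so the arms overlapped (change -5.62, SE 1.28, adjusted p = 0.0267). In PBS, Ttr was at 327 FPKM in female 1 and at 0.576 to 5.19 FPKM in the other 3 libraries. Slc4a5, a bicarbonate transporter of the epithelium, changed by -1.32 (adjusted p = 0.0203) and Enpp2, the autotaxin gene, by -1.85 (adjusted p = 0.0249). All 18 members were higher in LPS female 2 than in every LPS+DMA library. The summed level of the list was 259 to 2040 FPKM in LPS and 27.4 to 509 in LPS+DMA, and without LPS+DMA male 1 5 members were called. Its part in the immune results was not tested beyond the fit with choroid plexus and blood scores, in which no gene was called. In that fit the median changes were -0.45 for interferon response, -0.37 for MHC class II, -0.70 for complement and -0.68 for homeostatic microglia. Foxj1, the master factor of motile cilia, was the 1 called member of 9 ependymal genes (change -1.03, adjusted p = 0.0240).

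**Figure D3:**
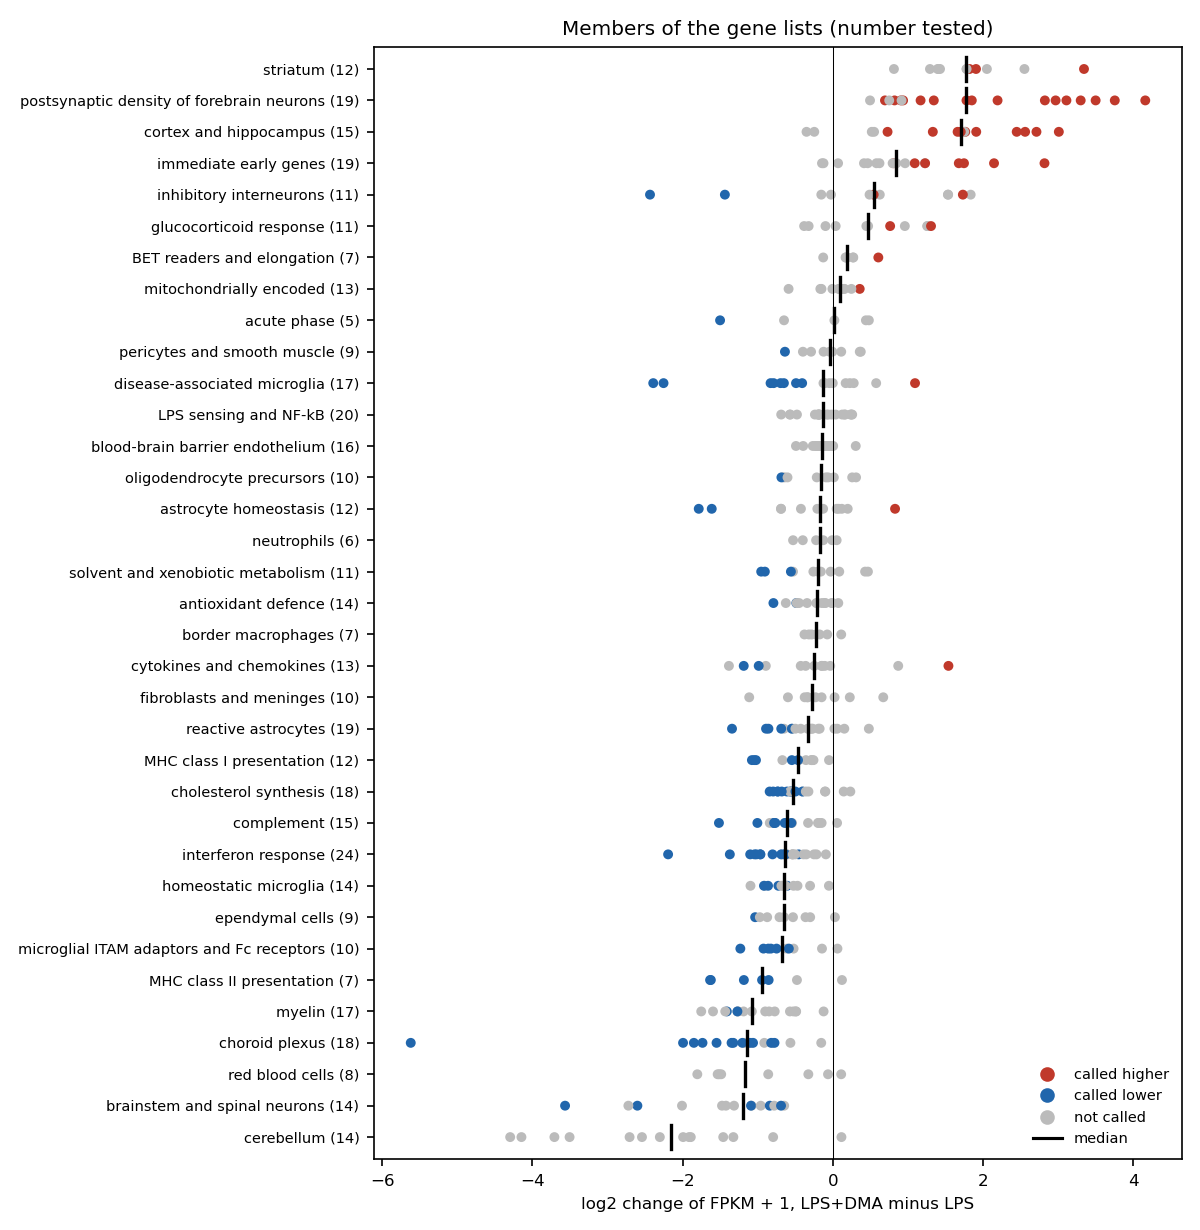
Each row is 1 gene list with at least 5 tested members, and each point a member at its log2 change (LPS+DMA minus LPS), coloured by call, with a black bar at the median. Forebrain, striatal and immediate early lists sit to the right, at medians of 0.84 to 1.78, and choroid plexus, brainstem and cerebellum lists to the left, at -1.14 to -2.15. Interferon, MHC, complement and microglial lists lie between -0.12 and -0.94.

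Many genes of forebrain neurons were higher in LPS+DMA, but treatment and brain region content cannot be told apart for them. In the postsynaptic density list 16 of 19 rose, none fell and the median was 1.78. The list's median difference from the LPS+DMA mean was -0.255 in LPS female 2 and -2.28 over the other 3 LPS libraries. Camk2a, the kinase of excitatory synapses in cortex and hippocampus, was at 50.8, 291, 9.45 and 10.6 FPKM in LPS and at 350, 311, 311 and 297 FPKM in LPS+DMA, with PBS at 138 to 268. The LPS+DMA libraries were alike, LPS female 2 lay just below them, and the other 3 LPS libraries were lower than every PBS library (change 3.11, SE 0.71, adjusted p = 0.0270). Ptk2b, a calcium-activated tyrosine kinase, followed the same order, with 7.72, 44, 1.31 and 1.55 FPKM against 67.9, 72.2, 69.3 and 60.7 FPKM (change 3.30, adjusted p = 0.0203). Smaller changes were seen for glutamate receptor subunits that are expressed throughout the brain. Gria2, of AMPA receptors, went from 17.3, 35, 13.2 and 15.5 FPKM to 48.6, 49.9, 37.1 and 39.9 FPKM (change 1.17, adjusted p = 0.0188). Grin1, the obligatory subunit of NMDA receptors, changed by 0.70 (adjusted p = 0.0192), and the kinase gene Camk2b by 0.94 (adjusted p = 0.0192).

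Cortical and hippocampal genes had 10 of 15 members rising, none falling and a median of 1.71. Bcl11b, a factor of deep-layer cortical and striatal neurons, had 1.94, 11.3, 0.919 and 0.674 FPKM in LPS against 16.5, 28.3, 13.8 and 12.7 FPKM in LPS+DMA (change 2.45, adjusted p = 0.0203). Its arms did not overlap, and LPS female 2 was the LPS library closest to LPS+DMA. Mef2c, a factor of cortical excitatory neurons, changed by 2.56 (adjusted p = 0.0213). Chrm1, the M1 muscarinic receptor of cortex and hippocampus, rose by 2.76 (adjusted p = 0.0213). Striatal genes had 3 of 12 rising and a median of 1.78, and 8 rose without LPS female 2. Gng7, a G protein gamma subunit of striatal neurons, was at 12.8, 53.6, 9.64 and 9.1 FPKM in LPS and at 63.3, 156, 54.3 and 27.8 FPKM in LPS+DMA (change 1.91, adjusted p = 0.0356), with overlapping arms. The LPS+DMA arm itself spanned a wide range here, and without male 1 no striatal gene was called.

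**Figure D4:**
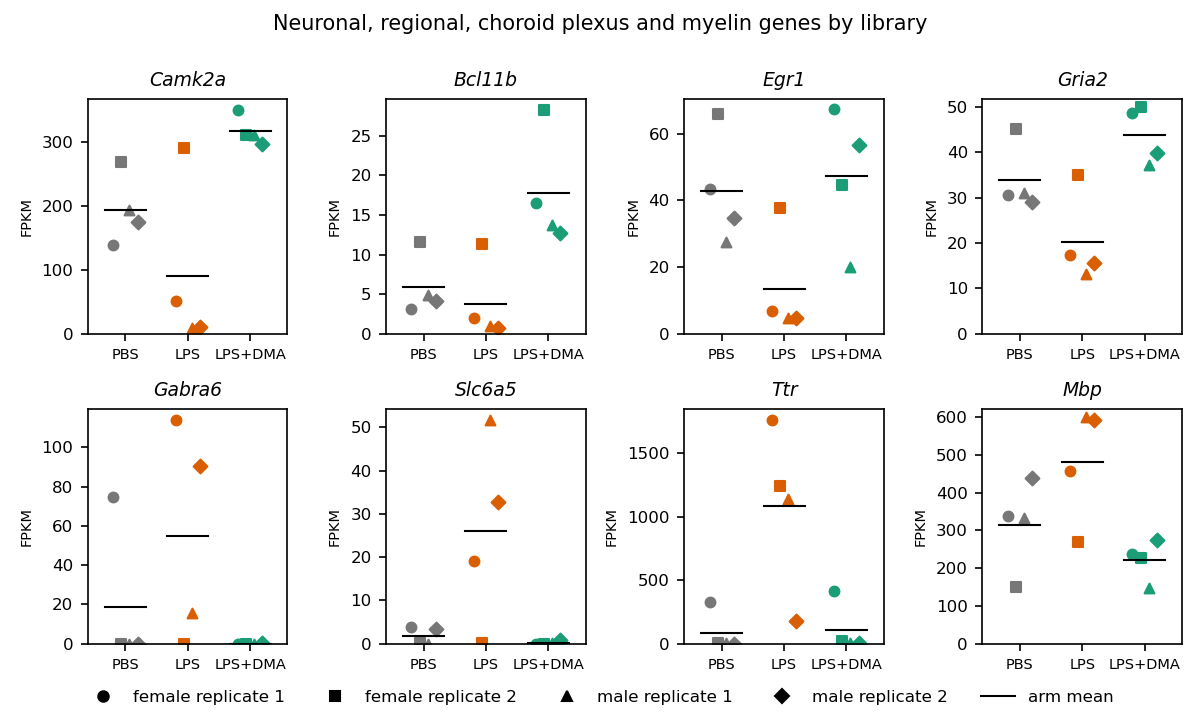
Each panel shows 1 gene, with FPKM on the vertical axis, the 3 arms on the horizontal axis, symbols for the libraries and lines for arm means (n = 4). LPS female 2 (orange square) is near the LPS+DMA libraries for Camk2a, Bcl11b, Gabra6 and Slc6a5, and at 1240 FPKM between other LPS libraries for Ttr.

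Immediate early genes, which neurons transcribe within minutes of firing, had 7 of 19 rising, none falling and a median of 0.84, with 11 rising without LPS female 2. Egr1 was at 6.71, 37.6, 4.77 and 4.74 FPKM in LPS and at 67.3, 44.7, 20.1 and 56.6 FPKM in LPS+DMA, with PBS at 27.5 to 65.9 (change 2.15, SE 0.46, adjusted p = 0.0234). LPS female 2 exceeded LPS+DMA male 1, so the arms overlapped. Egr3 changed by 2.82 (adjusted p = 0.0225) and the nuclear receptor gene Nr4a1 by 1.75 (adjusted p = 0.0203), both with overlapping arms. With the forebrain minus hindbrain score as a covariate the median was 0.29 for this list, 0.70 for the postsynaptic list and 0.65 for the striatal list, and no member of any of them was called. Pou3f1, a factor of cortical neurons, was the rising coding gene with the smallest p, at 1.48, 3.82, 1.4 and 1.81 FPKM in LPS and 8.4, 6.96, 7.06 and 8.78 FPKM in LPS+DMA. Its arms did not overlap, and the LPS+DMA libraries exceeded the 3.6 to 4.31 FPKM of PBS (change 1.55, SE 0.20, adjusted p = 0.0161).

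Hindbrain genes went the other way, and treatment and brain region content cannot be told apart for them either. Cerebellum genes had a median of -2.15 with 0 of 14 called, and the LPS libraries ranged from 35.3 to 843 FPKM in summed level against 27.9 to 38.5 in LPS+DMA. Without LPS female 2, 12 of the 14 fell. In brainstem and spinal neurons 5 of 14 fell, with a median of -1.20, and the count was 13 without LPS female 2 and 0 without LPS+DMA male 1. Slc6a5, the glycine transporter of inhibitory hindbrain neurons, was at 19.2, 0.0623, 51.7 and 32.8 FPKM in LPS and at 0, 0.0101, 0.0593 and 0.832 FPKM in LPS+DMA (change -3.56, adjusted p = 0.0414). Glra1, the adult glycine receptor subunit, changed by -2.60 (adjusted p = 0.0337), Sncg, gamma-synuclein, by -3.01 (adjusted p = 0.0197) and Klk6, a protease of oligodendrocytes, by -2.99 (adjusted p = 0.0203). Among interneuron markers 2 of 11 fell, the calcium-binding Pvalb (-2.43, adjusted p = 0.0479) and Calb2 (-1.44, adjusted p = 0.0431), and 2 rose, Vip (1.73, adjusted p = 0.0273) and Gad1, a GABA-synthesizing enzyme named after its values were seen (0.55, adjusted p = 0.0491). Without LPS+DMA male 1 no interneuron marker was called, and without LPS female 2 4 rose and 2 fell. Pvalb is also made by cerebellar Purkinje and basket cells and Calb2 by granule cells.

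Myelin genes had 2 of 17 falling and a median of -1.08. Without LPS+DMA male 1 the median was -0.53, and without LPS female 2 5 members fell. Aspa, which breaks down N-acetylaspartate in oligodendrocytes, was at 5.19, 4.98, 9.64 and 9.17 FPKM in LPS and at 3.1, 2.8, 0.748 and 3.35 FPKM in LPS+DMA (change -1.27, adjusted p = 0.0391). LPS+DMA male 1 was lowest and the arms did not overlap. Mbp, myelin basic protein, had 458, 270, 600 and 593 FPKM against 238, 228, 148 and 274 FPKM, and was not called (change -1.08, adjusted p = 0.0503). Olig2, the lineage factor of oligodendrocytes, was the 1 of 10 precursor genes that fell (change -0.68, adjusted p = 0.0409), and no precursor gene was called lower once LPS female 2 or LPS+DMA male 1 was left out.

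Cholesterol synthesis, carried out in the brain mainly by glia, had 10 of 18 members falling, none rising and a median of -0.52. Sc5d, a late sterol desaturase, was at 18.4, 16, 21.3 and 21 FPKM in LPS and at 12.8, 9.67, 10.2 and 11.8 FPKM in LPS+DMA (change -0.73, SE 0.12, adjusted p = 0.0186). The arms did not overlap, and all LPS+DMA libraries were below the PBS range of 13.5 to 18.7 FPKM. Idi1, an isomerase that supplies isoprenoid units, changed by -0.79 (adjusted p = 0.0209) and the sterol dehydrogenase gene Nsdhl by -0.68 (adjusted p = 0.0213). In contrast to the forebrain lists, LPS female 2 and the other 3 LPS libraries were about equally far above LPS+DMA here, at medians of 0.47 and 0.53.

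Among genes that handle solvents and oxidants all calls were lower, beside 3.88% of all genes tested called lower. Of 11 solvent and xenobiotic genes 3 fell: Gsta4, the glutathione transferase gene Gstt1 (-0.90, adjusted p = 0.0203) and Cyp2e1, the cytochrome P450 that oxidizes small solvents. Cyp2e1 was under 1 FPKM in all 8 libraries (change -0.56, adjusted p = 0.0454). In antioxidant defence 2 of 14 fell, catalase Cat (-0.79, adjusted p = 0.0227) and the peroxiredoxin gene Prdx1 (-0.48, adjusted p = 0.0499), with 4 falling without LPS female 2 and 1 without LPS+DMA male 1. Tcn2, the vitamin B12 carrier transcobalamin, was among the 10 genes with the smallest p, at 12.7, 11.9, 11.4 and 9.21 FPKM in LPS and 6.41, 8.02, 4.92 and 4.59 FPKM in LPS+DMA (change -0.83, adjusted p = 0.0169). Its arms did not overlap.

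Glucocorticoid response genes had 2 of 11 rising, none falling and a median of 0.47. Zbtb16, a zinc finger factor induced by steroids, was at 4.26, 5.49, 2.86 and 2.03 FPKM in LPS and at 7.86, 7.32, 14.9 and 11.8 FPKM in LPS+DMA (change 1.31, adjusted p = 0.0219). Klf9, another steroid-induced factor, had 59.7, 57.2, 91.7 and 44.5 FPKM in LPS+DMA against 24.4 to 43.5 in LPS (change 0.76, adjusted p = 0.0493). Klf9 was called in 9 of 29 alternative settings. The clock gene Per1 was at 60.6 FPKM in LPS+DMA male 1 and at 13.6 to 15.7 in the other 3 libraries of the arm, and was not called (change 1.26, adjusted p = 0.0710). Without LPS+DMA male 1 the median of the list was 0.10 and 3 members were called. Of 13 mitochondrially encoded genes 1 rose, mt-Nd5, a subunit of respiratory complex I (change 0.36, adjusted p = 0.0453), while with plain per-million scaling 0 of the 13 rose and 1 fell, and without LPS+DMA male 1 0 were called.

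LPS female 2 allowed a comparison in which neither side held cerebellar signal. Of the 759 genes called lower, 613 (80.8%) were above every LPS+DMA library in LPS female 2, against 16.3% of all genes tested. Of the 1133 called higher, 649 (57.3%) were below every LPS+DMA library there, against 17.1%. This library and the LPS+DMA libraries that define the range took part in the fit that made the calls, so the shares are descriptions. For calls from the fit without LPS female 2, the shares were 46.5% of 1609 genes called lower and 40.4% of 1856 called higher. The LPS+DMA libraries took part in that fit too. The sizes differed as well. Over the 759 genes called lower the median difference from the LPS+DMA mean was 0.46 in LPS female 2 and 0.78 over the other 3. Over the 1133 called higher it was -0.30 and -0.97. LPS female 2 is 1 library with no replicate of its kind, and its low ribosomal RNA share and missing cerebellar signal cannot be told apart. With only the libraries without cerebellar signal in the fit, which leaves LPS female 2 as the single LPS library, 5 genes were called (725 at an unadjusted p under 0.05), and 0 of the 1892 genes were among them. The 5, looked up after their values were seen, were Rn18s-rs5, mt-Rnr1, mt-Rnr2, Lars2 and a gene without a symbol, all higher in LPS+DMA by 5.23 to 7.75 on the log2 scale. The first 3 are ribosomal RNA genes.

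**Figure D5:**
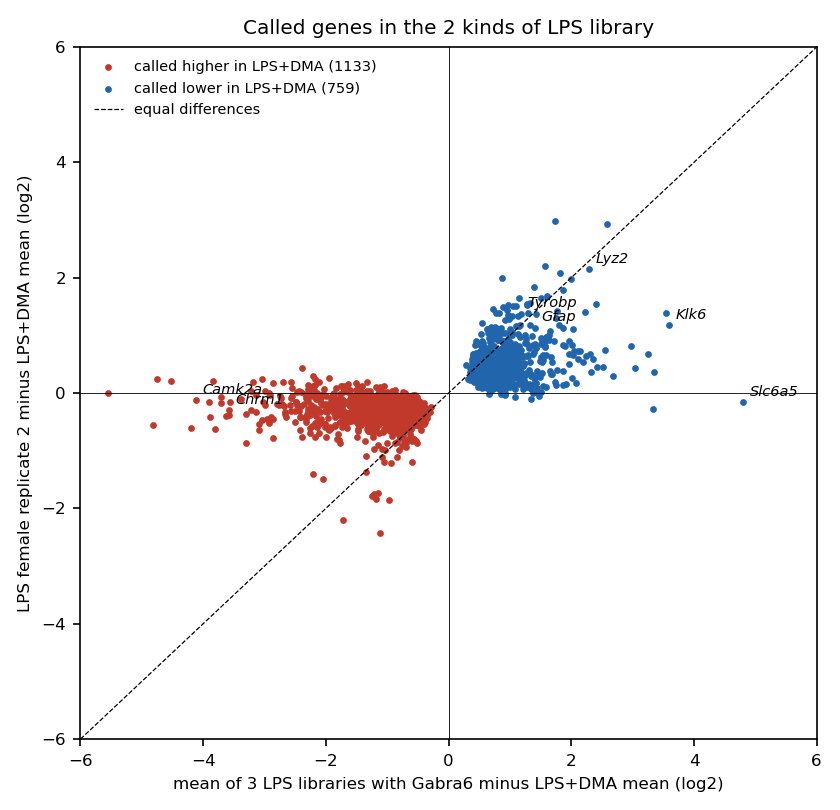
Each point is a called gene, with the mean of the 3 LPS libraries that hold Gabra6 minus the LPS+DMA mean on the horizontal axis and LPS female 2 minus the LPS+DMA mean on the vertical axis, both in log2 of FPKM + 1. Lyz2, Tyrobp and Gfap lie near the dashed line of equal differences, while Camk2a, Chrm1 and Slc6a5 lie near 0 on the vertical axis.

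All 1892 called genes had the same direction of mean difference in females as in males. The calls were made on the difference shared by these same females and males, which favours such agreement, so it is a description. Within females, 2 against 2, limma called 0 genes (1686 at an unadjusted p under 0.05), and within males 1009, or 5.16% of those tested (5056 unadjusted), 626 higher and 383 lower. The median size of the change over the 1892 genes was 0.58 in females and 0.93 in males, with the same median standard error of 0.24. The difference between the sexes was called for 0 genes (1008 at an unadjusted p under 0.05). The female LPS pair holds 1 library with cerebellar signal and 1 without, and the male LPS pair holds 2 with it, so sex and brain region content cannot be told apart in this difference. Calls in males went to 0 without LPS male 1, LPS male 2, PBS male 1 or PBS male 2, to 4 without either LPS+DMA female, and to 4889 without LPS+DMA male 2, and the sex difference then had 786 calls. Calls in males were 403, 401 and 612 without PBS female 1, PBS female 2 and LPS+DMA male 1. Calls in females were 122 without LPS female 2 and at most 5 in the other fits, and the sex difference had 9 calls without LPS female 1. Lyz2 changed by -2.04 in females and -2.47 in males, Tyrobp by -1.13 and -1.33, and Camk2a by 1.43 and 4.80.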

How the data were processed

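Whole-brain messenger RNA of 12 mice was sequenced, 1 library each. The deposited table gives FPKM values made by the authors, with a gene length column in bases as another deposited value. Per the submitters' processing notes the tools include HISAT2 2.2.1, featureCounts 2.0.6, DESeq2 1.42.0 and edgeR 4.0.16, on GRCm39. The labels describe both strand-specific and non-strand-specific preparations, so overlapping, antisense and near-identical genes are uncertain. FPKM times length gave whole reads for 100% of values up to 1000 reads (tolerance 0.1), which set the depth of 27.5 to 41.4 M (megareads) per library. Chi-square per degree of freedom was 37.3 or more over the 28 pairs among the 8 libraries, so none was counted as a repeat.

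Genes reaching 0.5 FPKM in 2 or more of the 12 libraries were kept, and log2(FPKM + 1) was used, which makes changes of low genes look smaller. limma 3.58.1 in R 4.3.3 fitted treatment and sex over all 12 libraries, with trended, robust variances. Within-sex contrasts used 1 mean per arm and sex. Alternatives covered the pseudocount, filter, scaling, variance model, libraries, covariates, replicate block, voom on recovered reads and each library left out. The fits were checked on simulated data.

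The members and gene lists were chosen with earlier results of these data known, so list counts are descriptions without a set test. Named genes are coding genes with non-overlapping arms and the largest change (10 each way), the 10 with the smallest p, up to 3 per list by p, and a fixed panel, of which a part is named. Promoters were matched to RefSeq by symbol. Some genes are not reported here.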

Additional observations from a re-analysis of the deposited data

Results flagged for a closer look

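For 85 genes of the text, each arm of 4 libraries was checked for 1 library far from the other 3, and 36 of 255 such groups held one. Chance flags about 1 in 20 groups, and genes of the same brain region are flagged together, so the 36 are not independent.

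LPS female 2 was the highest of its arm for 13 genes, most of them of forebrain neurons. These were Camk2a (291 FPKM), Egr1 (37.6), Gng7 (53.6), Ptk2b (44), Mef2c (24.8), Egr3 (20.2), Chrm1 (17.7), Nr4a1 (12.1) and Bcl11b (11.3). The others were Slc1a2 (206), Cx3cl1 (120), Fcer1g (18) and Lpl (2.38). PBS female 2 was highest of its arm in a similar set: Cx3cl1 (158 FPKM), Camk2b (80.4), Ptk2b (55.7), Gria2 (45.1), Grin1 (37.3), Mef2c (32.3), Egr3 (30.7), Chrm1 (21.7) and Vip (11.9). It was lowest for Sncg (2.42).

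PBS female 1 was highest for Ttr (327 FPKM), Gabra6 (74.6) and Slc4a5 (0.793). LPS+DMA female 1 was highest for Ttr (416), Ifi27l2a (1.9) and Slc4a5 (0.489), and lowest for mt-Nd5 (2340). LPS+DMA male 1 was highest for Per1 (60.6) and Saa3 (0.75). LPS+DMA male 2 was highest for Glra1 (6.56), Slc6a5 (0.832) and Gabra6 (0.17), and PBS male 2 for Cxcl16 (0.987).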

How the results depend on the processing

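The count of 1892 called genes was 83 with no filter on low values, 5 with the 8 libraries alone, 4152 with library weights, 2 with the forebrain minus hindbrain covariate (Lyz2 and Tyrobp), 0 with choroid plexus and blood covariates, and 5 without the libraries with Gabra6 over 10 FPKM. It was 2872 with plain per-million scaling and 4156 without LPS female 2 and LPS+DMA male 1 together, both chosen after seeing the data. Leaving out 1 library gave 7 to 3465 genes. Other settings gave 1513 to 2063. Calls within males were 50 and within females 3 with no filter, and leaving out 1 library gave 0 to 4889 in males, 0 to 122 in females and 0 to 786 for the sex difference. With the sex and number of the labels as a replicate block 2040 genes were called, and same-numbered LPS and LPS+DMA libraries did not deviate together (correlations of -0.30 to -0.05), so the numbers were not read as pairs. Direction changed for Lcn2 (-0.11 with choroid plexus and blood covariates, -0.13 without both named libraries), Nfkbia (-0.24 and -0.18, and from -0.16 to 0.57 leaving out 1 library), Gabra6 (1.22 with the region covariate, 0.0226 without libraries over 10 FPKM), Enpp2 (0.0232) and Gad1 (-0.0163), the last pair with choroid plexus and blood covariates. The cause was not tested. Some calls near the threshold were kept in few of the 29 alternative settings. Gad1 was called in 7, mt-Nd5 in 8 and Olig2 in 11 of them. Slc1a2, Prdx1 and Slc6a5 were each called in 12, and Cyp2e1 in 8 of the 28 settings that tested it. At these depths Tnf, Il1b, Il6 and Nos2 were too low to test.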

Other observations

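The deposited table also names transcription factor families. Of 1093 tested transcription factors 96 were called higher and 32 lower, with a median change of 0.06, beside 5.79% and 3.88% of all genes tested. Homeobox factors, many of which mark positions along the neural tube, were mostly on the lower side, with 12 of 90 called lower, 6 higher and a median of -0.35. Among bZIP factors, the family of Fos and Jun, 8 of 44 were higher and 1 lower at a median of 0.0037, and among zinc finger factors of the C2H2 class 27 of 486 were higher and 5 lower. The part of the forebrain and hindbrain signals of the libraries in these counts was not tested.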
